A study of Mus musculus with 46 samples.

Results

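The Ms4a cluster of mouse chromosome 19 was followed through its 5 genes measured in microglia, the resident macrophages of the brain: Ms4a4c, Ms4a6b, Ms4a6c, Ms4a6d and Ms4a7. They were taken by symbol from a table of RNA-seq read counts for 54134 genes, and all 5 were among the 12121 genes with enough counts to test. The 46 libraries came from AD mice (24 libraries) and WT mice (22 libraries) fed 1 of 3 diets. AD stands for 5xFAD, a model of Alzheimer's disease whose transgenes are expressed in neurons under the Thy1 promoter, and WT mice carry none of them. HAMSAB is a high-amylose maize starch, resistant to digestion, to which acetate and butyrate have been attached. The groups were AD on HAMSAB, WT on HAMSAB, AD on zero fiber, WT on zero fiber, AD on the control diet and WT on the control diet, each with 4 female and 4 male libraries except WT on zero fiber, with 4 female and 2 male libraries. Age, length of feeding and the way the cells were isolated are not in the labels. Nor do the labels state that every library came from its own mouse, so the p-values describe the spread between these libraries, which may be technical. The study's title asks about the role of dietary fiber in the microglial transcriptome.

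Ms4a genes encode small membrane proteins that cross the membrane several times, and most of them are expressed in leukocytes. Ms4a1 encodes the B cell protein CD20 and Ms4a2 the beta chain of the mast cell IgE receptor, while the members followed here are mainly known from macrophages and monocytes. The human MS4A locus carries common variants associated with the risk of Alzheimer's disease and, in human studies, with the level of soluble TREM2, the shed form of a microglial receptor. Ms4a7 is used in mice as a marker of macrophages at the borders of the brain, and Ms4a4c is counted among interferon-inducible genes of mouse myeloid cells.

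On GRCm38 the members lie on chromosome 19 within 283.8 kb. Ms4a7 (ENSMUSG00000024672) runs from 11321039 to 11336146 on the minus strand, Ms4a4c (ENSMUSG00000024675) from 11404770 to 11427246 on the plus strand, and Ms4a6c (ENSMUSG00000079419) from 11469366 to 11482192 on the plus strand. Ms4a6b (ENSMUSG00000024677) runs from 11516512 to 11531256 on the plus strand and Ms4a6d (ENSMUSG00000024679) from 11586604 to 11604849 on the minus strand. All 5 are protein-coding. Of the 19 annotated Ms4a genes of chromosome 19, 8 fall inside this span.

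The 250 bases before the RefSeq start site are shown for 3 members, because they set Ms4a4c, the member with a called difference between diets, beside the closely related pair Ms4a6b and Ms4a6c (RefSeq, GRCm38.p6, plus strand). They lie at chr19:11407411-11407660 for Ms4a4c, chr19:11518309-11518558 for Ms4a6b and chr19:11469118-11469367 for Ms4a6c. For Ms4a4c and Ms4a6b the RefSeq start sites, 11407661 and 11518559, lie inside the gene spans given above, which begin with the outermost annotated transcript, so other starts of these genes are not shown. Capitals mark AGGAAGT or its reverse complement ACTTCCT, a form of the site bound by PU.1, a transcription factor of the ETS family that macrophages need. Shorter or other forms of that site were not searched and are not marked.
Ms4a4c: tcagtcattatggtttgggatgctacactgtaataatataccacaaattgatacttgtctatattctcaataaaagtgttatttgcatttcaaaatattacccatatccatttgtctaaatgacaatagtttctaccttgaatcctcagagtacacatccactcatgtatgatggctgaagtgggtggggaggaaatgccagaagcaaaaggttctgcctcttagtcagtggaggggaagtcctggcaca
Ms4a6b: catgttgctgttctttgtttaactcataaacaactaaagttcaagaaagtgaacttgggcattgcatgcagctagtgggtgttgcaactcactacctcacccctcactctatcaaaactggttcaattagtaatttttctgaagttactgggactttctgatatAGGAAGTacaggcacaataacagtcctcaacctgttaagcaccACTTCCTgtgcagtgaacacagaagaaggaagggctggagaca
Ms4a6c: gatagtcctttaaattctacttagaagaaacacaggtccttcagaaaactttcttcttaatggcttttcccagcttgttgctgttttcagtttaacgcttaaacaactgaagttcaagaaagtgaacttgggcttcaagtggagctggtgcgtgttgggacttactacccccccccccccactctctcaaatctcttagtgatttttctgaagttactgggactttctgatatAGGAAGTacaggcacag
The Ms4a6b window held 2 matches, from position -86 to -80 and, on the other strand, from -43 to -37, and the Ms4a6c window held 1, from -17 to -11, counted from the start site. The first Ms4a6b match and the Ms4a6c match lie in an identical run of 48 bases that both windows share. Ms4a4c shared at most 9 bases with any window of another member. Promoter windows were on hand for 4 of the 5 members, and the 2 windows of Ms4a7 and that of Ms4a4c held no AGGAAGT, which occurs in 7.69% of all 32817 promoter windows of this length when both strands are searched. The pattern of interferon-stimulated response elements, TTTC and TTTC with any 2 bases between them, occurs in 2.97% of all windows and TTCNNNGAA, the pattern bound by STAT dimers, in 7.01%. Neither was found on either strand of the 5 windows. These are matches of letters and not measured binding sites.

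Totals ran from 52114 to 6950429 counts per library, with a median of 2344837.5, and 2 libraries held fewer than 1000000. The lowest total was that of zero_fiber_AD_M replicate 2, where the 5 members together had 15 counts. In the library labelled zero_fiber_AD_F replicate 1, Xist stood at 0.213 CPM (counts scaled to a library of 1000000) and Ddx3y at 142 CPM, against 653.5 to 1155 CPM of Xist and 0 to 17.9 CPM of Ddx3y in the 23 other libraries labelled female, so its sex label is in doubt. The 10 microglial markers, P2ry12 and Tmem119 among them, had counts in all 46 libraries. P2ry12 averaged 5402 ± 852 CPM and Tmem119 3182 ± 421 CPM over the 45 libraries left when the shallowest is set aside (SD). Markers of border macrophages were detected too (Mrc1, 27.4 ± 16.05 CPM), and the T cell gene Cd3e had 3 counts in all libraries together. In bulk RNA, fewer cells of a type and less RNA per cell cannot be told apart.

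Per kilobase of exon, the members covered a wide range in microglia. Over the 45 libraries Ms4a6d averaged 67.5 ± 14.03 CPM per kb, Ms4a6b 33.97 ± 4.72, Ms4a6c 5.08 ± 1.503, Ms4a4c 3.25 ± 1.59 and Ms4a7 0.926 ± 0.674 CPM per kb (SD). Ms4a6d stood above Ms4a6b in 45 of 45 libraries, and Ms4a6b above Ms4a6c in 45 of 45. The lower steps were less regular, with Ms4a6c above Ms4a4c in 37 libraries and Ms4a4c above Ms4a7 in 41. Ms4a6b and Ms4a6d carried most of the cluster's reads, with medians of 349 and 268 counts per library, against 25 for Ms4a6c, 12 for Ms4a4c and 8 for Ms4a7.

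**Figure D1:**
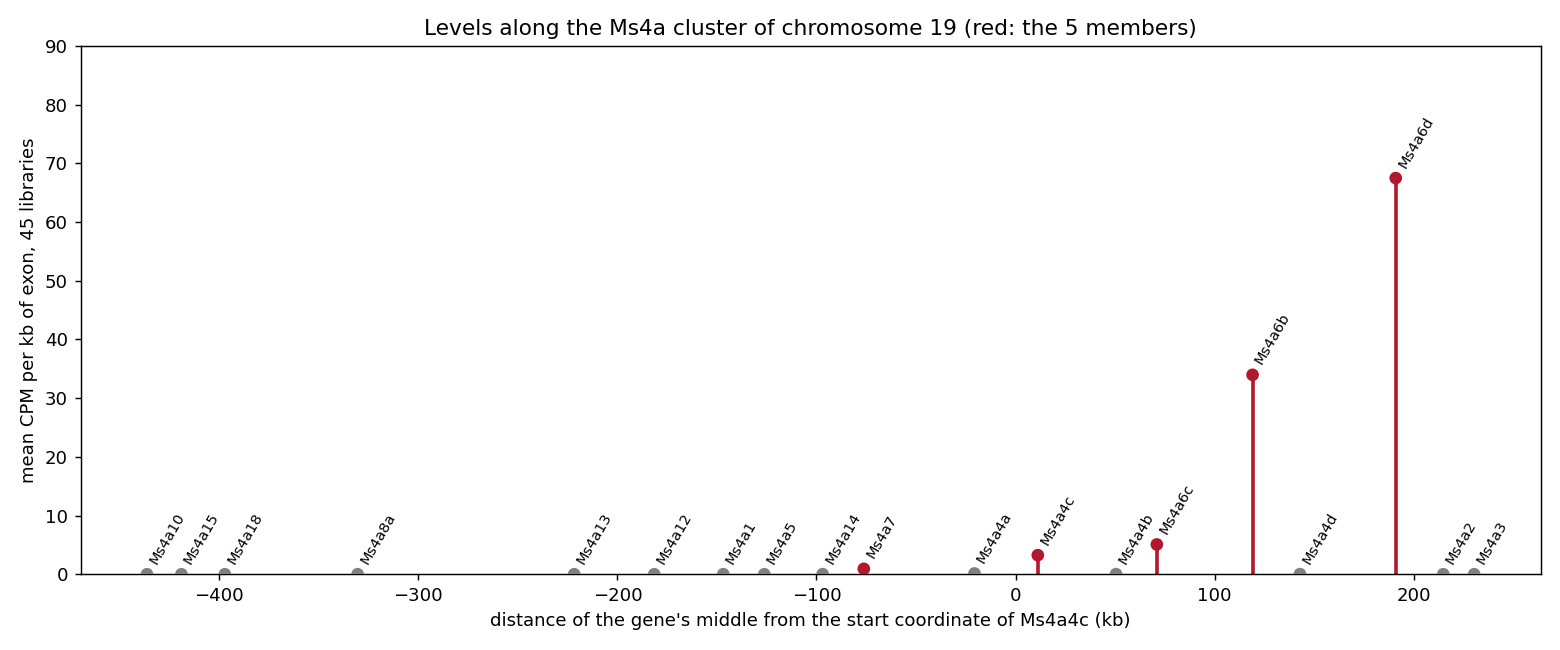
Mean level of each of the 19 Ms4a genes of chromosome 19, in CPM per kb of exon over 45 libraries, against its distance from the start coordinate of Ms4a4c in kb. The 5 members (red) stand at 0.926 to 67.5 CPM per kb, and each of the 14 other genes (gray) lies at or below 0.133.

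Counting error sets how finely each member can be followed. The spread over libraries, as a coefficient of variation, was 13.9% for Ms4a6b and 20.8% for Ms4a6d, against 5.50% and 6.28% from Poisson counting alone. For the 3 scarce members counting took a larger part, with 28.5% of counting error beside a spread of 49.0% for Ms4a4c, 21.1% beside 29.6% for Ms4a6c and 33.5% beside 72.8% for Ms4a7.
Sequence shared within the family could also move reads between members. Of the 50-base stretches of the Ms4a4c transcripts, 8.19% occur in another Ms4a gene, most of them in Ms4a4b, against 5.85% for Ms4a6c, 3.44% for Ms4a6b, 2.31% for Ms4a6d and 0% for Ms4a7. BE692007 overlaps Ms4a6c on the opposite strand and had 988 counts in all, against 1160 for Ms4a6c, and without a stated strand setting the reads of these genes cannot be told apart.

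Ms4a4c was the only member called in any comparison of diets, by the edgeR fit with its filter on low counts. In AD mice it rose on HAMSAB, to 8.87 ± 2.23 CPM, against 2.55 ± 1.94 CPM on zero fiber (SD, n = 8 each). The AD libraries on HAMSAB ran from 6.14 through a median of 8.43 to 12.2 CPM, against 0, 2.12 and 5.73 CPM in AD libraries on zero fiber. No library of one group reached into the other, and all 8 HAMSAB libraries stood above the highest zero fiber library. Such a separation, with HAMSAB higher, was seen for 0.0908% of all genes tested. The log2 fold change was 1.69 ± 0.30 (SE), a 3.24-fold difference with a 95% interval of 2.16 to 4.86 (edgeR quasi-likelihood test, Benjamini-Hochberg adjusted p = 0.0028 over 12121 genes).

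Ms4a4c was the 1 of 5 members called in that comparison, at an adjusted p under 0.05, where 0.239% of all genes were called and 0.165% were called higher. Without each of the 16 libraries in turn it was called every time, with log2 fold changes of 1.57 to 2.07. Leaving out both doubted libraries, zero_fiber_AD_F replicate 1 and zero_fiber_AD_M replicate 2, gave 1.58 ± 0.31 (adjusted p = 0.0144). The library of lowest depth holds 0 counts of Ms4a4c, which at its depth allows up to 57.6 CPM. The other 7 AD libraries on zero fiber ran from 1.23 to 5.73 CPM. The 1.23 CPM, of zero_fiber_AD_M replicate 1, rests on 1 count among 783849. Male libraries of this group held 1, 0, 8 and 2 counts of Ms4a4c, and the comparison weighted the sexes equally. By sex label, zero fiber means in AD mice were 1.4 ± 1.3 CPM in males and 3.7 ± 1.9 CPM in females (SD, n = 4 each). On HAMSAB they were 9.2 ± 2.1 and 8.6 ± 2.6 CPM. The size of the fold change thus rests in part on few male counts. Library titles carry numbers below or from 2900, which the labels do not call batches. The title number of HAMSAB_AD_F replicate 4 is 000, and this library was placed in neither series. At 6.14 CPM it had the lowest Ms4a4c of the AD libraries on HAMSAB. The difference of mean log2 CPM was 2.30 below 2900 (5 libraries on HAMSAB against 4 on zero fiber) and 1.21 from 2900 (2 against 4). The 4 zero fiber libraries below 2900 include the library of lowest depth, whose 0 counts enter as a log2 CPM of -0.33. In WT mice, whose values follow, the difference was 0.68 (5 against 4) and 0.49 (3 against 2).

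In WT mice Ms4a4c stood at 7.11 ± 2.62 CPM on HAMSAB (3.69 to 11.4, median 7.06, n = 8) and 4.21 ± 1.03 CPM on zero fiber (2.96 to 6.01, median 4.12, n = 6). These groups overlapped, and the log2 fold change of 0.80 ± 0.30 did not pass the test (adjusted p = 0.195). In WT mice 0 of 5 members were called, where 2.19% of all genes were, and 2, Ms4a4c and Ms4a6d, had an unadjusted p under 0.05, as had 12% of all genes. The change in AD minus that in WT was 0.89 ± 0.43 on the log2 scale (edgeR adjusted p = 0.507), so a difference between the genotypes was not shown. Averaged over both genotypes Ms4a4c rose on HAMSAB against zero fiber by 1.25 ± 0.21 (adjusted p = 0.000626), again as the 1 member of 5 called, where 1.02% of all genes were called. Leaving out any 1 of the 30 libraries did not change this call.

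The control diet lay between the other diets for Ms4a4c. AD mice had 4.63 ± 1.83 CPM on the control diet (2.06 to 7.53, median 4.55) and WT mice 5.71 ± 2.35 CPM (1.69 to 9.49, median 6.28; n = 8 each). HAMSAB against control gave a log2 fold change of 0.95 ± 0.25 in AD mice (adjusted p = 0.0671) and 0.26 ± 0.25 in WT mice (adjusted p = 0.709). In these comparisons 0 of 5 members were called, where 0.0743% and 0.281% of all genes were, and 2 and 1 members had an unadjusted p under 0.05, as had 15.3% and 13.3% of all genes. Over both genotypes Ms4a4c rose on HAMSAB against control by 0.61 ± 0.18 (adjusted p = 0.0381), as 1 of 5 members, where 4.52% of all genes were called. That call is close to the threshold. It held in 17 of the 32 fits that left out 1 library, and it did not hold with a term for the title series (adjusted p = 0.0672) or for border macrophage markers (adjusted p = 0.0663).

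Zero fiber against control gave Ms4a4c log2 fold changes of -0.75 ± 0.32 in AD mice (adjusted p = 0.377) and -0.54 ± 0.30 in WT mice (adjusted p = 0.69), neither past the test. It called 0 of 5 members in AD, in WT and over both genotypes, where 0.0578%, 0.00825% and 0.363% of all genes were called and 1 member each had an unadjusted p under 0.05, as had 10.8%, 7.58% and 13.1% of all genes. The difference of its effect between the genotypes also called 0 members and 0% of all genes, with 2 members and 6.17% of all genes at an unadjusted p under 0.05. By mean level the groups were ordered AD on HAMSAB, WT on HAMSAB, WT on control, AD on control, WT on zero fiber and AD on zero fiber. Each step between neighbours in this order, 0.418 to 1.77 CPM, was smaller than the larger of the 2 SDs. The HAMSAB comparisons share their HAMSAB libraries, and the zero fiber and control libraries likewise enter more than 1 of them.

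**Figure D2:**
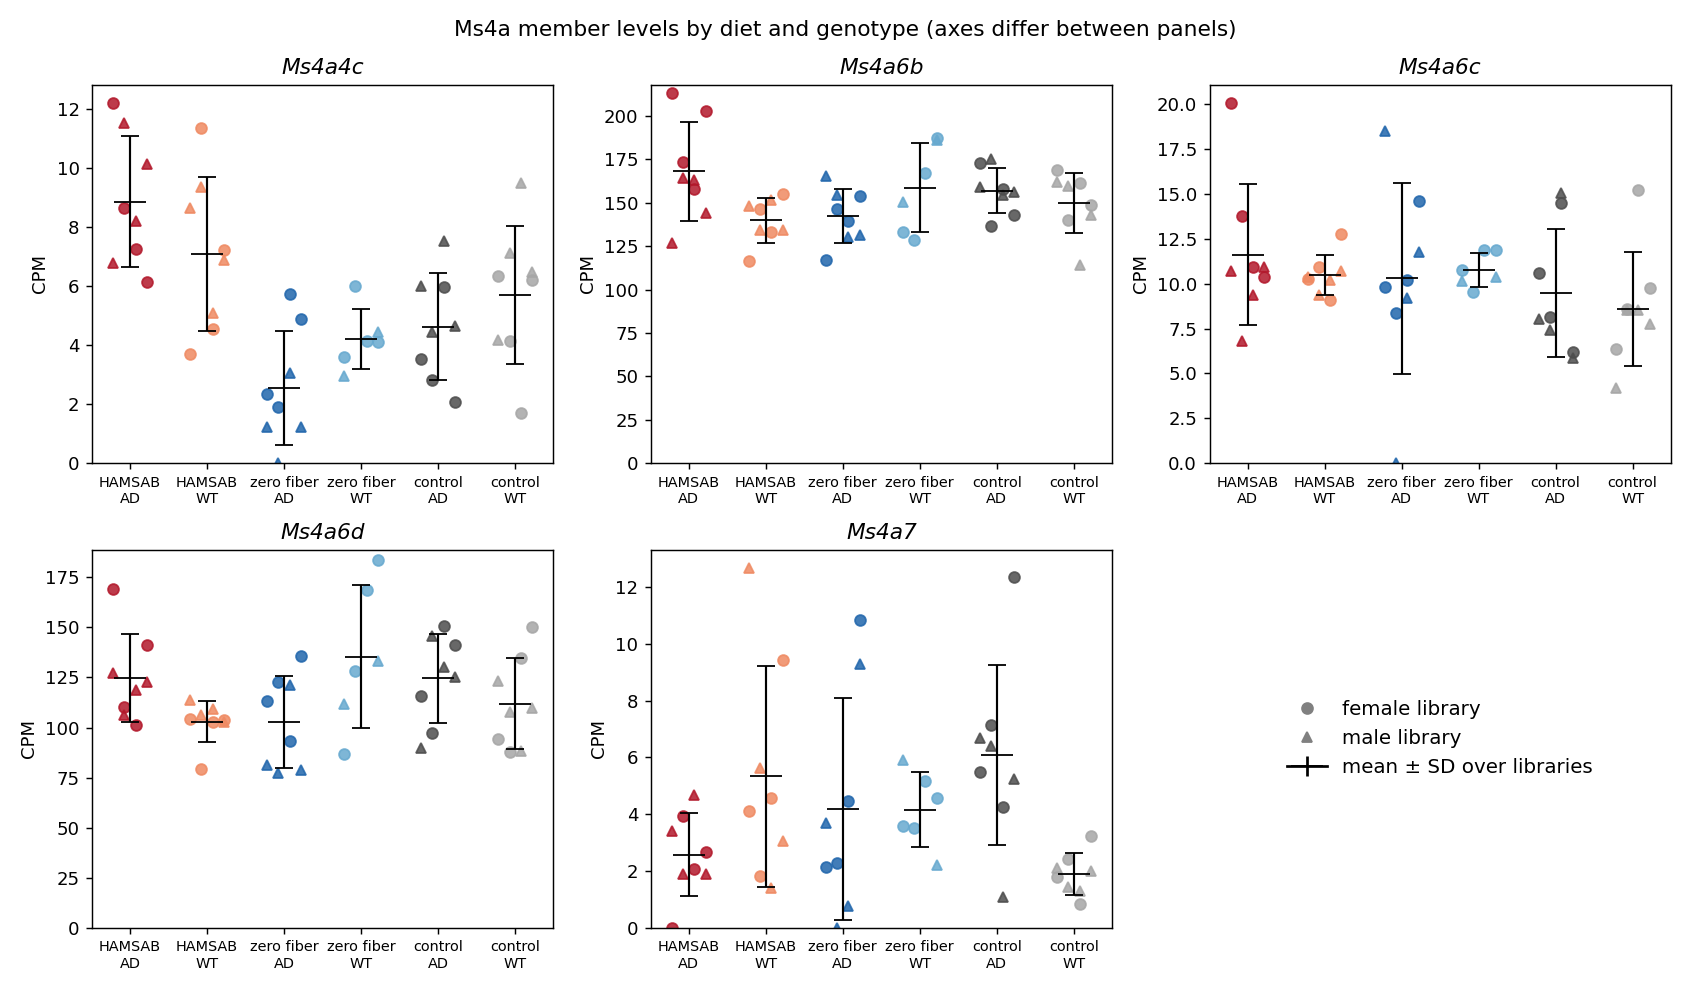
CPM of each member in every library, by diet and genotype, with female libraries as circles, male libraries as triangles and the mean ± SD in black. The scales differ between panels. For Ms4a4c the 8 AD libraries on HAMSAB (6.14 to 12.2 CPM) all lie above the 8 AD libraries on zero fiber (0 to 5.73 CPM), while the other members overlap between every pair of groups compared.

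Genes induced by interferons were set beside Ms4a4c. Of 28 such genes on the list, 26 were tested. In AD mice on HAMSAB against zero fiber 25 of the 26 had a fold change above 0, with a median of 0.69 against 0.00413 over all genes on the log2 scale, and 2 passed the test: Slfn2, a Schlafen family gene (0.87 ± 0.19, adjusted p = 0.026), and Ifi27l2a (1.55 ± 0.33, adjusted p = 0.0213). In WT mice, where 2.19% of all genes were called but Ms4a4c was not, 26 of the 26 were above 0 (median 0.76) and 2 were called. Male against female, with 0.124% of all genes called, had 25 of the 26 above 0 (median 0.33) and 0 called. Ms4a4c stood at 0.06 ± 0.17 there. In HAMSAB against zero fiber over both genotypes, where 1.02% of all genes were called, 10 of the 26 rose, with a median of 0.75 for the list. Among them were Rtp4 (1.0 ± 0.18, adjusted p = 0.00168), Ifit3, an antiviral gene (1.14 ± 0.23, adjusted p = 0.00635), and Slfn2 (0.87 ± 0.14, adjusted p = 0.000294).

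Across the 45 libraries, log2 CPM of Ms4a4c and the mean log2 CPM of the 26 genes gave a Pearson r of 0.612 and a Spearman rho of 0.658 (permutation p = 1e-05 for each, the smallest that 100000 permutations can give; 0.00015 adjusted over the 15 relations computed). Without the 2 libraries farthest from the median of the list r was 0.562. It was 0.845 among the 22 libraries numbered below 2900 and 0.443 among the 22 from 2900. With each group's mean removed r was 0.383. The permutations for this and the other relations exchanged libraries across groups, so their p includes differences between diets and genotypes, and no p was computed within groups.

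Markers of other cells were set beside the Ms4a4c result. The 10 monocyte markers summed to 5.91 to 15.8 CPM in AD libraries on HAMSAB (median 11.9). In AD libraries on zero fiber they summed to 0 to 15.5 CPM (median 10.5), and the 0 came from the library of lowest depth. Ly6c2, which defines classical monocytes, was at 0 in 32 of 46 libraries, Plac8 in 2 and Ccr2 in 1. Of the 10, Plac8 and Ccr2 were tested. On HAMSAB against zero fiber their log2 fold changes were 0.80 ± 0.47 and -0.20 ± 0.46 in AD mice. In WT mice they were 0.86 ± 0.51 and -0.04 ± 0.50, and none of these was called. The part of monocyte RNA in the Ms4a4c result was not tested. The 10 border macrophage markers summed to 168 to 223 CPM in AD libraries on HAMSAB and 183 to 463.5 CPM on zero fiber. Most of it was Stab1, without which the sums were 16.1 to 46.3 and 31.1 to 90.3 CPM. With Stab1, the 463.5 CPM and the next sum, 450 CPM, came from zero_fiber_AD_M replicates 2 and 1, with 52114 and 783849 counts in all. The next highest sum on zero fiber in AD mice was 266.8 CPM. With a term for these markers in the fit, the log2 fold change of Ms4a4c in AD mice was 1.65 ± 0.31 (adjusted p = 0.00848). Over 45 libraries Ms4a4c and the mean of the 8 border macrophage markers tested gave r = -0.369 and rho = -0.406 (permutation p = 0.0128 and 0.00577, adjusted over the 15 relations 0.0481 and 0.0216). The r was -0.378 without the 2 farthest libraries, -0.276 and -0.589 within the title series below and from 2900, and -0.131 with group means removed. Over both genotypes, HAMSAB against zero fiber also called Mrc1, the mannose receptor of border macrophages (fell by 1.0 ± 0.26 on the log2 scale, adjusted p = 0.0392), the neutrophil granule gene Ngp (fell by 4.08 ± 1.05, adjusted p = 0.0436) and Ighm, the immunoglobulin mu chain (rose by 0.39 ± 0.10, adjusted p = 0.0346). Ngp had 93 counts in all libraries together and was at 0 in 31 of 46, so its fold change rests on few counts. The part of neutrophil and lymphocyte RNA in the Ms4a4c result was not tested. The 6 neutrophil markers summed to 0 to 4.86 CPM in AD libraries on HAMSAB and 0 to 20.2 CPM on zero fiber. The 10 lymphocyte markers summed to 347 to 571.5 and 263 to 403 CPM in these groups, nearly all of it Ighm and Cd79b. The 263 CPM came from the library of lowest depth. Cd3e had 3 and Cd79a 4 counts in all libraries together.

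**Figure D3:**
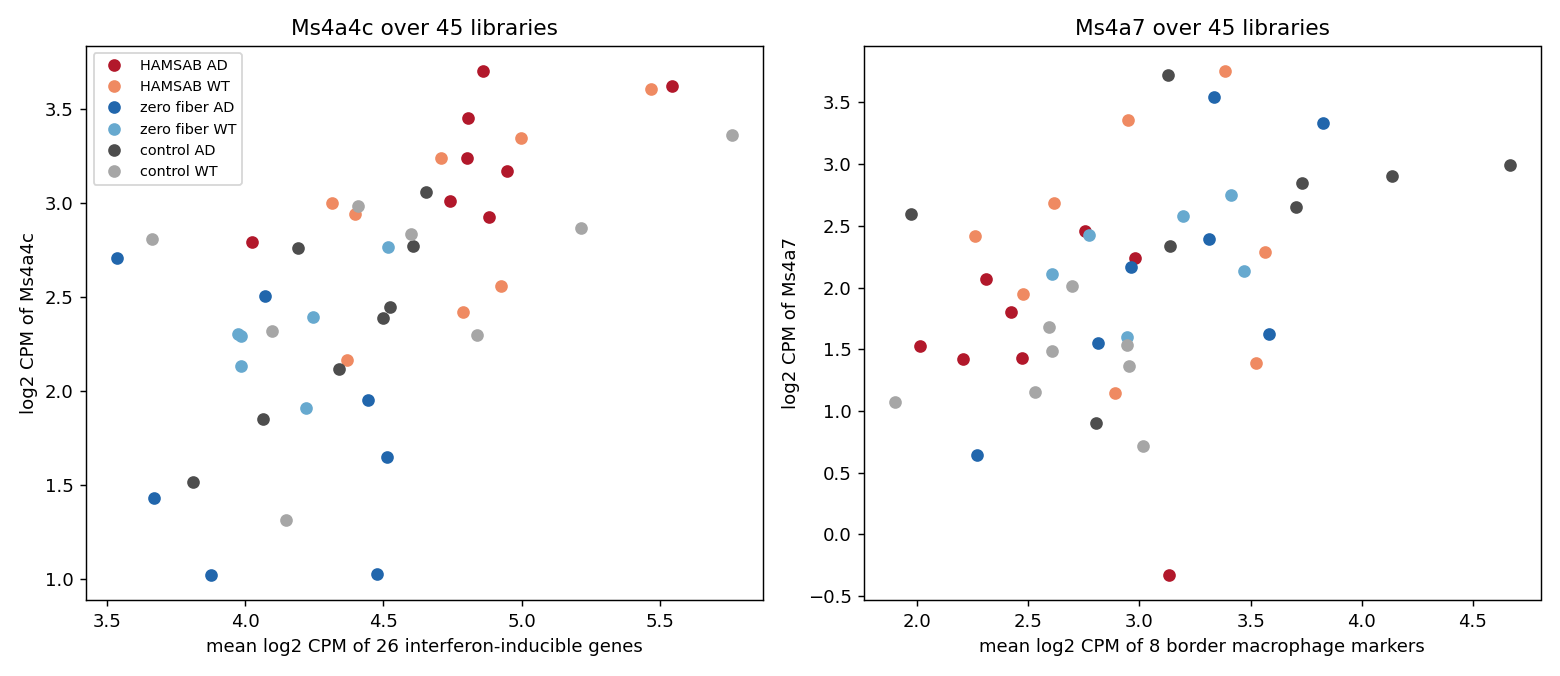
Left, log2 CPM of Ms4a4c against the mean log2 CPM of 26 interferon-inducible genes (r = 0.612). Right, log2 CPM of Ms4a7 against the mean log2 CPM of 8 border macrophage markers (r = 0.423). Each point is 1 of 45 libraries, colored by diet and genotype. On the left, the HAMSAB libraries of AD mice lie above the AD libraries on zero fiber in Ms4a4c. The summed CPM of the 28 listed genes, a measure other than the axis, overlapped between these groups. It ran from 779 to 1854 in AD libraries on HAMSAB and from 626 to 1021 in AD libraries on zero fiber. The 779 is that of HAMSAB_AD_F replicate 4, and the next lowest on HAMSAB in AD mice was 1195.

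Ms4a7, the border macrophage marker, varied most of the 5 between libraries and passed no test with the filter on low counts. AD mice on the control diet had 6.09 ± 3.17 CPM (1.08 to 12.4, median 5.96), against 1.89 ± 0.738 CPM in WT mice on that diet (0.846 to 3.25, median 1.89; SD, n = 8 each). Of the 8 AD libraries, 7 stood above the WT range and 1 lay within it. The log2 fold change was 1.56 ± 0.45 (adjusted p = 0.835). On HAMSAB the AD mean was the lower one, with 2.57 ± 1.46 CPM in AD mice (0 to 4.69, median 2.38) and 5.34 ± 3.89 CPM in WT mice (1.42 to 12.7, median 4.33), a log2 fold change of -1.05 ± 0.45 (adjusted p = 0.295). HAMSAB against control gave -1.24 ± 0.44 in AD mice (adjusted p = 0.162) and 1.37 ± 0.46 in WT mice (adjusted p = 0.156). The difference between these effects was -2.61 ± 0.64 (adjusted p = 0.509), and 0 of 5 members were called there, where 0% of all genes were called, and 1 member had an unadjusted p under 0.05, as had 5.53% of all genes. Within the title series below and from 2900, AD minus WT on the control diet was 1.49 (4 libraries against 1) and 1.01 (4 against 7) in mean log2 CPM, and HAMSAB minus control in AD mice was -1.44 (5 against 4) and -0.51 (2 against 4).

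On zero fiber Ms4a7 stood at 4.18 ± 3.92 CPM in AD mice (0 to 10.8, median 2.99, n = 8) and 4.16 ± 1.32 CPM in WT mice (2.23 to 5.91, median 4.08, n = 6). With no filter on low counts, Ms4a7 passed the test in AD against WT on the control diet (adjusted p = 0.00238) and in HAMSAB against control in AD (adjusted p = 0.0176) and in WT (adjusted p = 0.00989). There 149, 357 and 433 of 31448 genes passed, against 0, 9 and 34 of 12121 with the filter. By mean of Ms4a7 the order was AD on control, WT on HAMSAB, AD on zero fiber, WT on zero fiber, AD on HAMSAB and WT on control. The step from WT on zero fiber to AD on HAMSAB, 1.59 CPM, was 1.09 times the larger SD, and the other steps were smaller than the larger SD.

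The median fold change of the 8 border macrophage markers tested had the sign of Ms4a7 in the contrasts given first here. In AD against WT on the control diet 8 of 8 were above 0 (median 1.46 on the log2 scale) and 0 were called, as were 0% of all genes. In HAMSAB against control in AD mice 0 of 8 were above 0 (median -1.37) and 0 were called, where 0.0743% of all genes were. The medians were 0.66 in HAMSAB against control in WT mice and -0.61 in AD against WT on HAMSAB. The signs differed in HAMSAB against zero fiber in WT mice (Ms4a7 0.32, median of the markers -0.08). They also differed in HAMSAB against control over both genotypes (Ms4a7 0.06, median of the markers -0.33). Without Stab1 the summed markers ran from 19.8 to 162 CPM in AD and 19.3 to 59.3 CPM in WT mice on the control diet. With the border macrophage term the Ms4a7 fold change in AD against WT on the control diet was 1.16 ± 0.51 (adjusted p = 1), and in HAMSAB against control in AD mice -0.81 ± 0.51 (adjusted p = 0.668). Over 45 libraries Ms4a7 and the mean of the 8 markers gave r = 0.423 and rho = 0.461 (permutation p = 0.0037 and 0.00151, adjusted over the 15 relations 0.0185 and 0.00755). The r was 0.368 without the 2 farthest libraries, 0.491 and 0.411 within the title series below and from 2900, and 0.218 with group means removed.

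Ms4a6b and Ms4a6d, the abundant pair, were called in no comparison with the filter on low counts. Ms4a6b stood at 168 ± 28.5 CPM in AD mice on HAMSAB (127 to 213, median 164) and 142 ± 15.7 CPM in AD mice on zero fiber (117 to 165, median 143; n = 8 each). In WT mice it stood at 139.9 ± 12.7 CPM on HAMSAB (116 to 155, median 140.4, n = 8) and 159 ± 25.8 CPM on zero fiber (128 to 188, median 159, n = 6). The log2 fold changes had opposite signs, 0.25 ± 0.10 in AD (adjusted p = 0.311) and -0.20 ± 0.10 in WT (adjusted p = 0.429). The difference of the 2 effects was 0.46 ± 0.14 (adjusted p = 0.114). On the control diet AD mice had 157 ± 13.2 CPM (137 to 175.5, median 157) and WT mice 149.8 ± 17.5 CPM (114 to 169, median 154).

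Ms4a6d showed the same signs. It stood at 125 ± 22.02 CPM in AD mice on HAMSAB (101 to 169, median 121) and 103 ± 23 CPM in AD mice on zero fiber (77.3 to 135.5, median 103). In WT mice it stood at 103 ± 10.2 CPM on HAMSAB (79.2 to 114, median 104) and 135 ± 35.8 CPM on zero fiber (86.6 to 183.5, median 131). The log2 fold changes were 0.25 ± 0.14 in AD (adjusted p = 0.532) and -0.36 ± 0.15 in WT (adjusted p = 0.27), and their difference was 0.61 ± 0.20 (adjusted p = 0.164, and 0.0296 with no filter on low counts). On the control diet AD mice had 124.5 ± 22.4 CPM (89.7 to 151, median 128) and WT mice 112 ± 22.6 CPM (87.7 to 150.1, median 109). In this interaction 0 of 5 members were called with the filter, where 1.08% of all genes were, and 3 of the 5 had an unadjusted p under 0.05, as had 9.46% of all genes. With no filter 374 of 31448 genes were called in it.

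For both genes each step in the order of group means was smaller than the larger SD. Across 45 libraries the pair had the highest correlation among the 10 pairs of members, r = 0.47 on log2 CPM and 0.40 with group means removed. The other 9 pairs lay between -0.25 and 0.21. Within the title series below and from 2900, the differences of mean log2 CPM for Ms4a6d on HAMSAB against zero fiber were 0.40 and 0.00935 in AD mice and -0.16 and -0.76 in WT mice. For Ms4a6b they were 0.18 and 0.21 in AD mice and -0.09 and -0.33 in WT mice. The correlations share library depth and the family's common sequence and are given as a description.

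None of the 17 contrasts of Ms4a6c had an unadjusted p under 0.05 in the edgeR fit. Its means were 11.6 ± 3.93 CPM in AD and 10.5 ± 1.12 CPM in WT mice on HAMSAB, 10.3 ± 5.34 and 10.8 ± 0.954 CPM in AD and WT mice on zero fiber, and 9.47 ± 3.59 and 8.61 ± 3.17 CPM in AD and WT mice on the control diet (SD). The libraries ran from 6.81 to 20.1 CPM in AD mice on HAMSAB (median 10.8) and from 9.11 to 12.8 CPM in WT mice on HAMSAB (median 10.3). They ran from 0 to 18.5 CPM in AD mice on zero fiber (median 9.99; from 8.37 without the library of lowest depth) and from 9.52 to 11.9 CPM in WT mice on zero fiber (median 10.6). On the control diet they ran from 5.83 to 15.1 CPM in AD mice (median 8.10) and from 4.19 to 15.2 CPM in WT mice (median 8.53). The groups overlapped, and the largest of its 17 contrasts by size, zero fiber against control in WT mice, was 0.35 ± 0.22 on the log2 scale (adjusted p = 0.739).

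**Figure D4:**
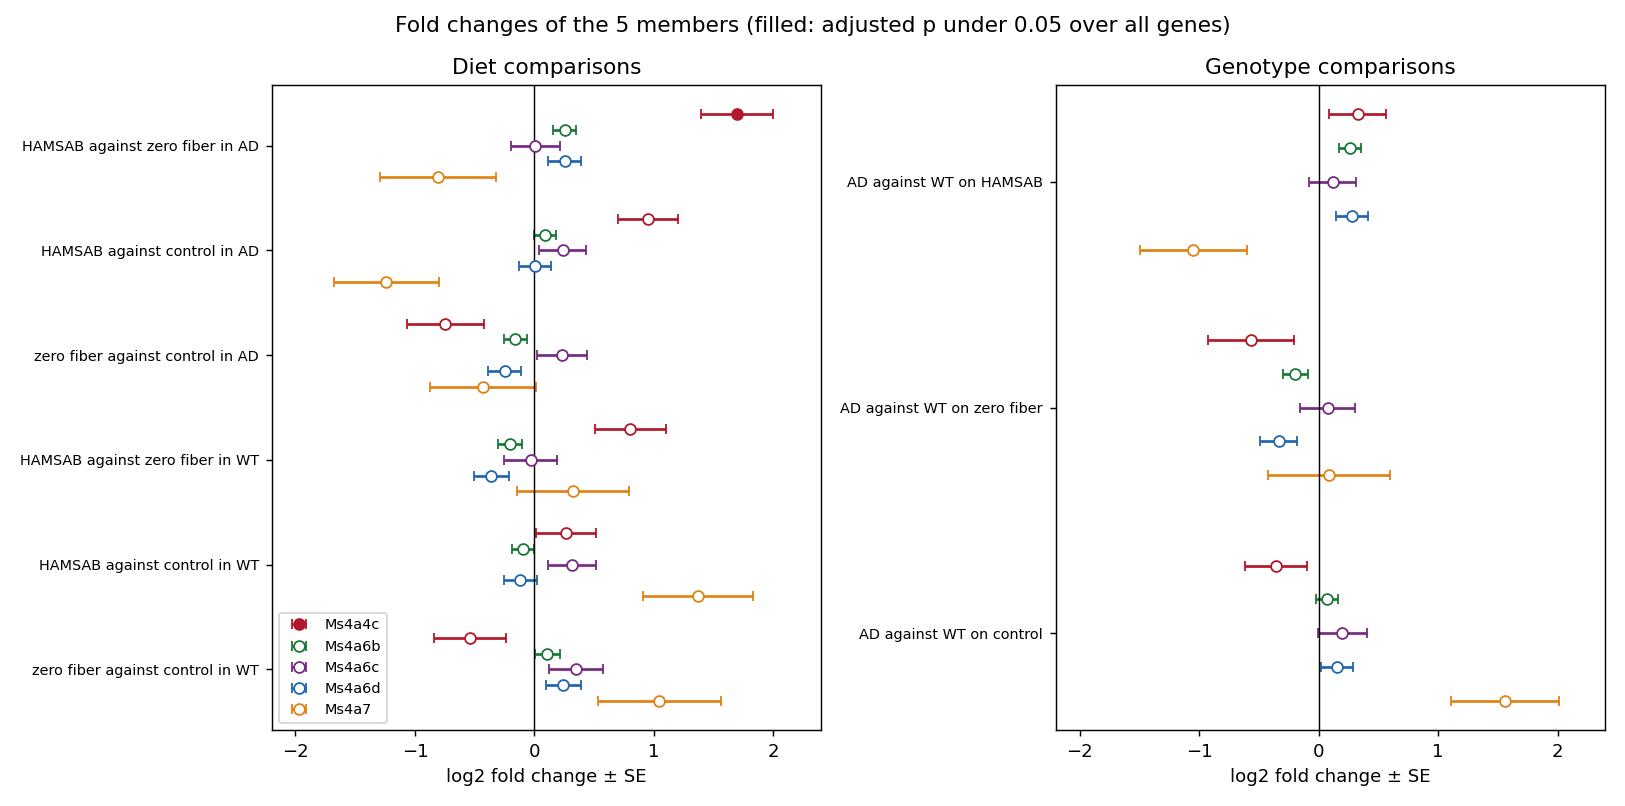
Log2 fold changes ± SE of the 5 members from the edgeR fit, for diets within each genotype (left) and for AD against WT on each diet (right). Filled points passed an adjusted p under 0.05 over all genes, which holds for Ms4a4c in HAMSAB against zero fiber in AD mice (1.69 ± 0.30). Open points did not pass.

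AD against WT called 0 of 5 members on HAMSAB, on zero fiber, on the control diet and over the diets together in the edgeR fit, where 1.68%, 0.00825%, 0% and 0.0165% of all genes were called, and 3, 1, 1 and 0 members had an unadjusted p under 0.05, as had 12%, 4.7%, 5.4% and 7.28% of all genes. On HAMSAB these 3 were Ms4a6b (0.26 ± 0.09, adjusted p = 0.167), Ms4a6d (0.28 ± 0.13, adjusted p = 0.394) and Ms4a7. On zero fiber it was Ms4a6d, with a log2 fold change of -0.33 ± 0.15 (adjusted p = 1). Over the diets the fold changes lay between -0.20 for Ms4a4c and 0.20 for Ms4a7. Male against female likewise called 0 of 5 members, where 0.124% of all genes were called, and 0 had an unadjusted p under 0.05, as had 10.5% of all genes. Where edgeR called 0 members, the DESeq2 test and limma voom did too, in the diet comparisons as in these, although DESeq2 gave no adjusted p for Ms4a4c and Ms4a7 in HAMSAB against control in AD mice.

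The rest of the family was close to silent. All 14 other Ms4a genes of the table were below the filter and are described by counts only. Ms4a4b, known from T cells, had 23 counts in all libraries together, Ms4a4a 8, Ms4a14 8, Ms4a1 4, Ms4a4d 4, Ms4a8a 2 and Ms4a3 1. Ms4a2, Ms4a5, Ms4a10, Ms4a12, Ms4a13, Ms4a15 and Ms4a18 had 0 counts in every library. Ms4a4a, whose human counterpart is the member most discussed for soluble TREM2, averaged 0.133 CPM per kb, against 3.25 CPM per kb for Ms4a4c beside it on the chromosome. Tmem176a and Tmem176b, related membrane proteins encoded elsewhere in the genome, averaged 244.5 ± 41.6 and 594 ± 88.3 CPM, and neither was called in any comparison. In AD mice on HAMSAB against zero fiber their log2 fold changes were 0.33 ± 0.11 (adjusted p = 0.197) and 0.28 ± 0.10 (adjusted p = 0.262).

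Of 8 genes around the Trem2 receptor (Trem2, Tyrobp, Apoe, Adam10, Adam17, Syk, Plcg2 and Inpp5d), all tested, 0 passed in HAMSAB against zero fiber in AD mice (median log2 fold change -0.04), where Ms4a4c did. Adam10, a protease that sheds Trem2, rose on HAMSAB against zero fiber in WT mice (0.93 ± 0.25, adjusted p = 0.0329), where 2.19% of all genes were called. In AD mice its log2 fold change was -0.03 ± 0.21 (adjusted p = 0.996). The change in AD minus that in WT was -0.96 ± 0.32 (adjusted p = 0.172). Syk, the kinase downstream of Tyrobp, fell by 0.32 ± 0.07 in HAMSAB against control over both genotypes (adjusted p = 0.00786), where 4.52% of all genes were called.

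Neighbouring genes on chromosome 19 were compared with Ms4a4c. Within 1 Mb of the outermost members 24 other genes were tested. In HAMSAB against zero fiber in AD mice 0 of the 24 were called, with a median log2 fold change of 0.03. In HAMSAB against control over both genotypes AW112010 (0.62 ± 0.13, adjusted p = 0.00514) and A330040F15Rik (0.90 ± 0.24, adjusted p = 0.0214) rose and Osbp, an oxysterol-binding protein, fell by 0.48 ± 0.11 (adjusted p = 0.0115). In that comparison 4.52% of all genes were called. Of the 24, Mpeg1, which encodes a pore-forming protein of macrophages, had the highest correlation with Ms4a4c over 45 libraries (r = 0.63).

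The genes whose log2 CPM followed each member most closely over the 45 libraries were sought among genes averaging 3 or more on that scale. For Ms4a4c these were the chemokine Ccl5 (r = 0.72, and 0.61 with group means removed), Phf11b (0.69 and 0.54), the interferon-gamma induced GTPase Igtp (0.67 and 0.40), Ifit3 (0.67 and 0.44) and the MHC class I chain H2-K1 (0.66 and 0.29). For Ms4a6d they were Lman1 (0.68, and 0.73 with group means removed) and Mcfd2 (0.66 and 0.65), which form a cargo receptor between endoplasmic reticulum and Golgi, then Pon3 (0.64 and 0.76) and Ccdc126 (0.64 and 0.62). For Ms4a6b they were Pon2 (0.60 and 0.61), Itfg1 (0.58 and 0.50), Kank3 (0.58 and 0.60), M6pr (0.57 and 0.43) and Fdx1 (0.57 and 0.48). For Ms4a6c they were Chchd6 (0.61 and 0.55), Tssc4 (0.61 and 0.46), Msra (0.57 and 0.36), Ndufs6 (0.57 and 0.48) and Isca2 (0.55 and 0.39). For Ms4a7 they were Clcf1 (0.52 and 0.43), Zrsr1 (0.51 and 0.50), Utp20 (0.50 and 0.56), Gfm1 (0.49 and 0.50) and Arrb1 (0.47 and 0.33). These correlations are descriptions, since the libraries share groups and depth.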

How the data were processed

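The authors deposited raw counts of reads per gene symbol, without normalization, in a single table with a column for each library. Per the submitters' processing notes, STAR 2.5.2b, featureCounts 1.5.2 and GRCm38 (mm10) were used. The sources used here do not give the annotation release, the strand setting or how reads matching several genes were treated. Per the labels' protocols, RNA came from an RNeasy Micro kit run on a QIAcube. Coordinates and exon lengths are from GENCODE M21 (GRCm38).

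Counts were fitted in R 4.3.3 with edgeR 4.0.16 (TMM factors 0.918 to 1.25, filterByExpr, quasi-likelihood F test), using the 46 libraries together and 1 mean per group of diet, genotype and sex (12 groups). Comparisons averaged the sexes with equal weight. Of 54134 genes, 22686 had no counts and 12121 were tested. A gene was called where its p, adjusted after Benjamini and Hochberg across those 12121, was under 0.05, in each of 17 comparisons. CPM are counts scaled to 1000000 by TMM-adjusted library size, and log2 CPM carry a prior count of 2. The limits for 0 counts (3 counts) cover counting error only. Replicates were compared pairwise, none were identical, and the smallest chi-square was 1.62 times its degrees of freedom. Correlations used libraries with at least 500000 counts, with permutation tests in numpy 2.4.6 and ranks from scipy 1.17.1. Replicate numbers follow accession order and pair nothing.

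Alternatives were DESeq2 size factors, the DESeq2 1.42.0 test, limma 3.58.1 voom with quality weights, no filter, terms for the title series (split at 2900) or border macrophage markers, fewer libraries, and leaving out each library in turn. The genes named were the 5 members throughout, tested family genes, at most 4 called genes per list (lowest p first), and the 5 genes most correlated with each member, of which 1 is not reported here. Mpeg1, BE692007 and the sex genes were chosen after their values were seen. The members and gene lists were chosen with earlier results of these data known.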

Additional observations from a re-analysis of the deposited data

Results flagged for a closer look

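In 3 of the 30 combinations of member and group, the lowest library stood far from the others of its group on the log2 CPM scale, where chance alone gives about 1 in 20. Ms4a6c was at 0 CPM in zero_fiber_AD_M replicate 2, against 8.37 CPM in the next library of that group. That library has 52114 counts in all, and 0 counts there allow up to 57.6 CPM. Ms4a7 was at 0 CPM in HAMSAB_AD_F replicate 1, against 1.88 CPM in the next library, where 0 of 2352755 counts allow up to 1.27 CPM. Ms4a6d was at 79.2 CPM in HAMSAB_WT_F replicate 2 (174 counts), against 102.7 CPM in the next.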

How the results depend on the processing

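The call of Ms4a4c in HAMSAB against zero fiber held under all 8 alternatives in AD mice (log2 fold change 1.58 to 1.75) and over both genotypes (1.19 to 1.28). Of 670 member values under these alternatives 662 kept their side of the threshold, where a value without an adjusted p counts as not called. Among them, 19 that were never called had another sign. With no filter on low counts, 2 members were called in HAMSAB against control in AD mice (Ms4a4c, adjusted p = 0.0335; Ms4a7, 0.0176), and 1 was called in HAMSAB against control in WT mice (Ms4a7, 0.00989), in AD against WT on the control diet (Ms4a7, 0.00238), in AD minus WT of HAMSAB against zero fiber (Ms4a6d, 0.63 on the log2 scale, 0.0296) and in AD minus WT of HAMSAB against control (Ms4a7, -2.58, 0.000114). The cause was not tested. With no filter 31448 genes enter the test, and 357, 433, 149, 374 and 66 of them were called in these comparisons, in the order given. With the filter 9, 34, 0, 131 and 0 of 12121 genes were called there. For HAMSAB against control over both genotypes, 0 members were called with a term for border macrophage markers or the title series. Leaving out 1 library at a time gave 0 to 1 calls there and in HAMSAB against control in AD mice, where Ms4a4c was called without control_AD_F replicate 3 (log2 fold change 1.14, adjusted p = 0.032). Over both genotypes the Ms4a4c call was lost, with adjusted p of 0.0507 to 0.0847, without HAMSAB_AD_F replicate 1, HAMSAB_AD_M replicates 2 and 4, HAMSAB_WT_F replicates 2 and 4, HAMSAB_WT_M replicates 1 and 2, control_AD_F replicates 2 and 4, control_AD_M replicates 1 and 2, control_WT_F replicates 2 and 3, or control_WT_M replicates 1 and 4. Counts of 8 to 25 per library limit Ms4a7, Ms4a4c and Ms4a6c.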

Other observations

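Genes of the disease-associated microglial state also moved between the diets. Of 25 on the list 23 were tested, and 8 rose in HAMSAB against zero fiber over both genotypes, where 1.02% of all genes were called, among them the TAM receptor Axl (1.22 ± 0.17, adjusted p = 2.66e-05), the integrin Itgax (1.80 ± 0.26, adjusted p = 4.72e-05) and the MHC class I light chain B2m (0.41 ± 0.08, adjusted p = 0.00462). Across 45 libraries Ms4a4c and the mean of the 23 genes gave r = 0.446 and rho = 0.486 (permutation p = 0.0023 and 0.00075, adjusted over 15 relations 0.0172 and 0.00562). The r was 0.483 without the 2 farthest libraries, 0.606 and 0.191 within the title series below and from 2900, and 0.109 with group means removed. The permutations exchanged libraries across groups, so their p includes differences between diets and genotypes, and no p was computed within groups. For Ms4a6b, Ms4a6c, Ms4a6d and Ms4a7 the r with the same list lay between -0.0841 and 0.1.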
